A study of Mus musculus with 9 samples.

Results

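The serpins are a family of proteins that share a fold and are named by clade with the letters A to I. Their genes were taken here as every row of the count table whose symbol is Serpin followed by a clade letter, a number and, where there is one, a final letter, which gave 64 genes of the 56748 in the table. A further 5 rows named Serpin did not match that form and were left out. Of the 64 genes, 15 had 0 counts in all 9 libraries, 28 had counts but too few to test, and 21 passed the filter on low counts and were tested.

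Most serpins are suicide inhibitors of proteases. The protease cuts an exposed loop of the serpin, which then snaps into a new shape and holds the enzyme in a covalent complex that is cleared by receptors of the low-density lipoprotein receptor family. Extracellular serpins hold thrombin, plasmin, the plasminogen activators and the complement protease C1 in check, clade B serpins mostly act inside cells against granule proteases and cathepsins, and a few members have no inhibitory activity and serve as chaperones, hormone carriers or signalling proteins. In the brain, Serpine2 (protease nexin 1) and Serpini1 (neuroserpin) are known for restraining thrombin and tissue plasminogen activator, and Serpina3n is a widely used marker gene of reactive astrocytes.

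Polyadenylated RNA was sequenced from cortical cells of C57BL/6J mice, wild type and 2 to 3 months old, in 3 groups of 3 biological replicates. The uninjured group held freshly dissociated cortical cells without a lesion, and the injured group held dissociated cells from cortex stabbed with a surgical lancet in a grid. In both, cell sorting removed dead cells, debris and the neuronal fraction, which was CD171+ and ACSA-2-. Reactive cultures came from dissected lesion cores of stabbed cortex, grew in medium containing 10% fetal bovine serum and went into the RNA extraction whole, with no sort. All groups were wild type. Per the sample labels dissection followed injury by 1 day and culture lasted 6 days, but per the design text of the series the injured group was taken at 3 days and the cultures were started at 24 h and kept for 8 days, so the times are not settled. The cultures differ from both in vivo groups in growth in medium and the lack of a sort, from injured cortex also in the time since the lesion and from uninjured cortex also in having had one, and the share of each in a difference cannot be told apart.

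Total counts ranged from 12205049 to 24302770 per library. The sorted groups were rich in microglia and oligodendrocyte RNA, with summed levels of 7 microglia markers of 6380 to 15516 CPM (counts scaled to the library total), of 7 oligodendrocyte markers of 13963 to 37890 CPM and of 8 astrocyte markers of 2212 to 7730 CPM. The cultures stood at 928 to 1405 CPM for the microglia, 273 to 563 CPM for the oligodendrocyte and 69.0 to 117 CPM for the astrocyte markers. All 8 astrocyte markers were called lower in cultures than in each in vivo group, and there Aldoc was at 32.0 to 72.4 CPM and Aqp4 at 0.430 to 1.15 CPM. Uninjured replicates 2 and 3 stood apart in holding counts at olfactory and vomeronasal receptor genes, 182 and 151 CPM in sum against 14.4 to 44.1 CPM in the other 7 libraries. Injured replicate 3 held more astrocyte marker RNA (5291 CPM) than injured replicates 1 and 2 (2212 and 2489 CPM). In bulk samples, fewer cells of a type and less RNA per cell cannot be told apart.

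Injury was accompanied by higher RNA of 8 of the 21 tested serpins and by lower RNA of Serpinb1a and Serpini1. The 8 were Serpina3n and Serpina3g of clade A and Serpinb1b, Serpinb1c, Serpinb6b, Serpinb8, Serpinb9 and Serpinb10 of clade B. These 10 calls (edgeR quasi-likelihood test, adjusted p under 0.05) made up 47.6% of the tested serpins, where 11.9% of all 18093 genes tested were called, 8.99% as higher and 2.87% as lower. The median log2 fold change of the tested serpins was 0.76 beside 0.00 for all genes. Serpina3g and Serpinb10 passed the filter on low counts only through the injured libraries, which favoured the higher direction for them. All 3 injured libraries lay above all 3 uninjured ones for 9 members and below them for 3, beside 16.1% and 12.5% of all genes. The test among all genes made 75.8% of its calls in the higher direction, and 64.0% under upper-quartile scaling, which moved the median of all genes by -0.12. With uninjured replicates 2 and 3 left out, 1 member stayed called higher, Serpina3n, and 0 lower, while 9 and 2 members had an unadjusted p under 0.05 by edgeR. Without injured replicate 1 the count of higher members was 4, without uninjured replicate 3 it was 5, and in a fit of the 2 groups alone it was 3.

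The cultures differed from both in vivo groups in most tested serpins. Against injured cortex, 13 members were higher and 6 lower, 90.5% of the 21, where 50.1% of all genes were called, 20.0% as higher and 30.1% as lower. Against uninjured cortex, 13 were higher and 3 lower, 76.2%, where 60.5% of all genes were called, 27.5% as higher and 33.1% as lower. The median log2 fold change of the tested serpins was 2.75 against injured and 3.16 against uninjured cortex, beside -0.19 and -0.17 for all genes. All 3 cultures lay above all 3 injured libraries for 13 members and below them for 6, beside 25.8% and 33.8% of all genes, and above and below all uninjured libraries for 13 and 5, beside 32.1% and 37.1%. Both comparisons share the 3 culture libraries, so their counts are not independent. Serpinb1b, Serpinb1c, Serpinb2 and Serpinb12 passed the filter on low counts only through the cultures, and Serpina3g and Serpinb10 only through injured cortex. The filter thus favoured higher levels of these members in that group, in the counts and medians of the family, its clades, lists and clusters. It acted on all genes, and how many others passed this way was not counted. The count of 3 lower members against uninjured cortex was 5 without injured replicate 1 or injured replicate 3 and 2 without culture replicate 1 or 3.

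**Figure D1:**
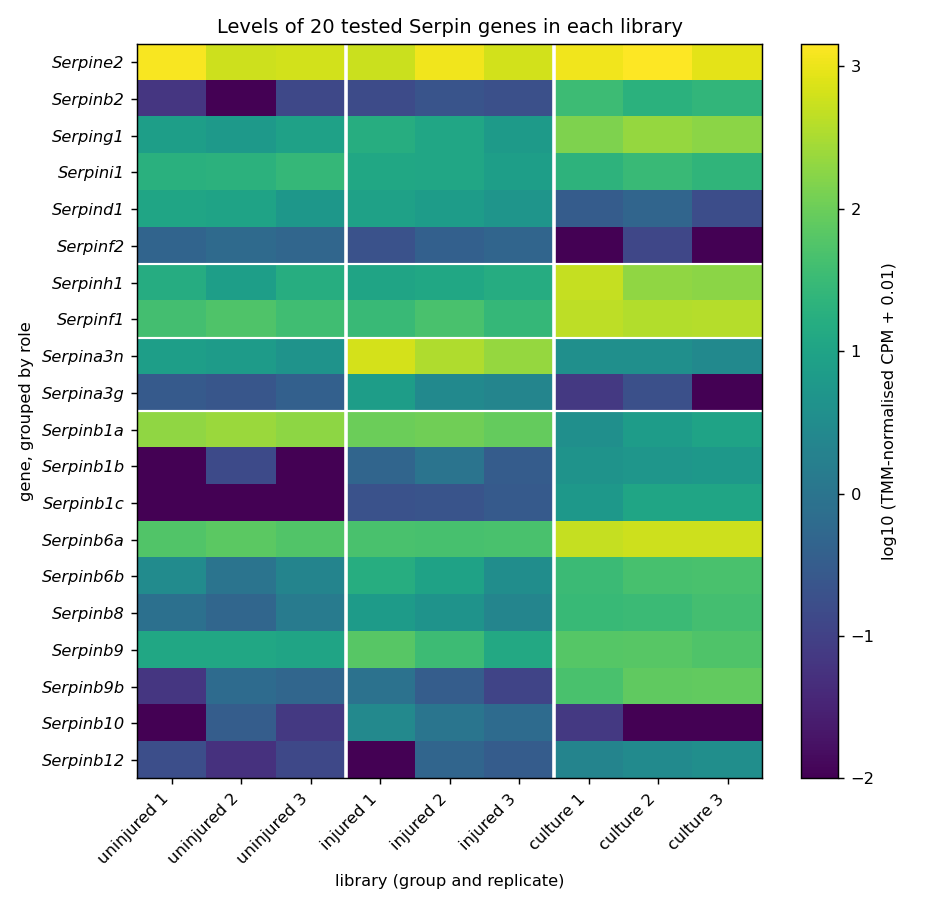
Levels of 20 of the 21 tested Serpin genes (rows, grouped by role) in the 9 libraries (columns), as log10 of CPM with 0.01 CPM added. Serpina3n and Serpina3g are brightest in the 3 injured columns, Serpine2 is bright in all 9, and Serpinb1a darkens from 207 CPM on average in uninjured cortex to 6.81 CPM in cultures.

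**Figure D2:**
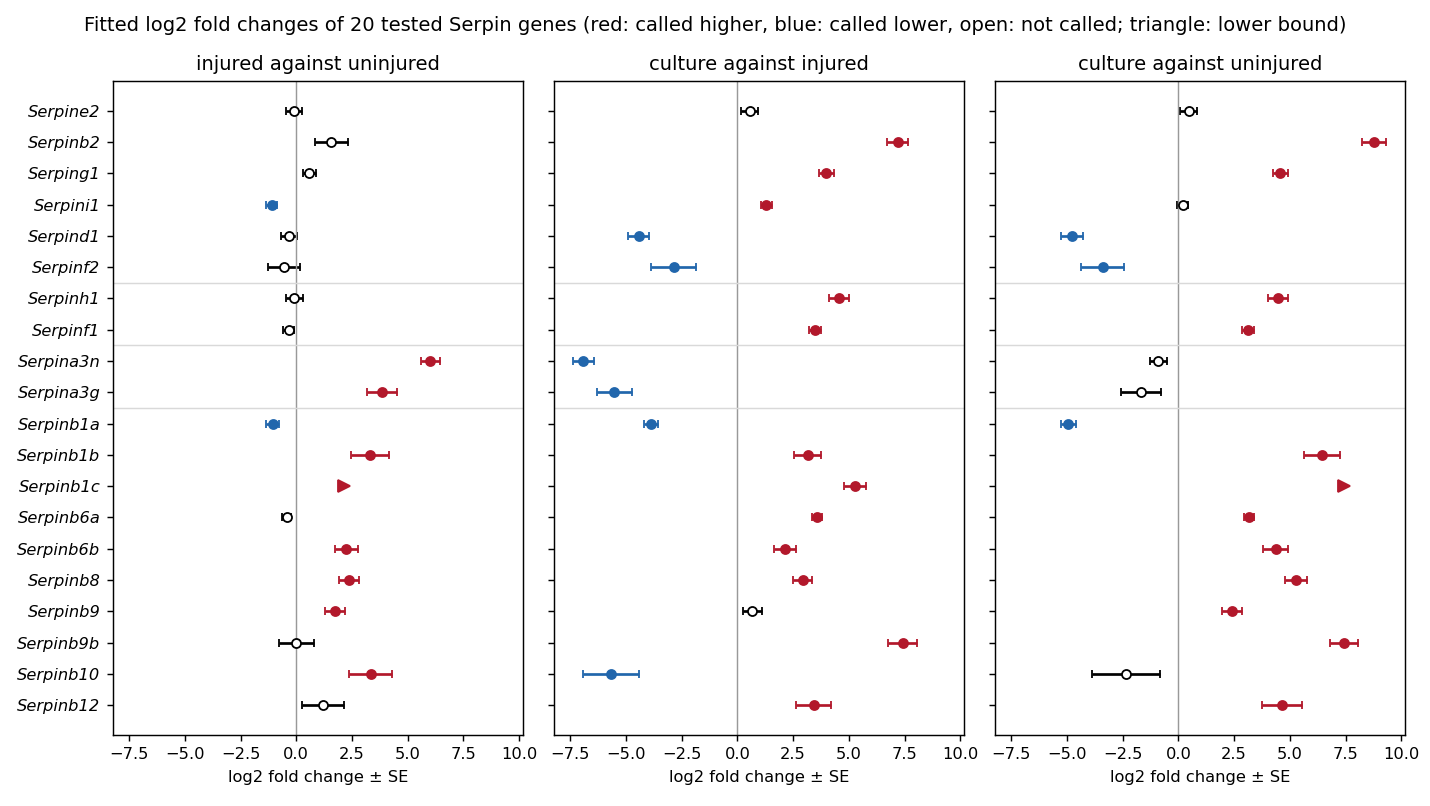
Fitted log2 fold changes (points) with their SE (bars) for 20 of the 21 tested Serpin genes in the 3 comparisons, filled where called at an adjusted p under 0.05, with triangles for the lower bounds of Serpinb1c against its 0 counts in uninjured cortex. For injury 8 genes are called to the right and 2 to the left of 0, and for cultures against injured cortex 12 and 6.

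All 64 genes together took 1871, 1205 and 1356 CPM of the library total in uninjured replicates 1 to 3, 1581, 1689 and 1493 CPM in injured cortex and 2247, 2279 and 1999 CPM in the cultures. The uninjured and injured ranges overlapped, and the 3 cultures lay above all 6 other libraries. Clade A went from 7.54 to 9.29 CPM in uninjured cortex to 303 to 684 CPM after injury and 2.64 to 3.09 CPM in culture, whereas clade B went from 307 to 388 CPM to 194 to 242 CPM and then 540 to 669 CPM. With the library totals scaled by TMM, as for single genes and added after seeing the data, the family sum was 1004 to 1655 CPM in uninjured cortex, 1072 to 1802 CPM in injured cortex and 2606 to 3183 CPM in cultures, and the overlaps of the groups were the same for the family and for clades A and B.

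Serpine2 had the largest mean share of the serpin counts in each group. It made up 65.6% ± 10.2 (SD, n = 3) of the serpin counts in uninjured cortex, 52.3% ± 14.6 in injured cortex and 38.4% ± 5.88 in cultures. Serpina3n went from 0.529% ± 0.128 of the serpin counts in uninjured cortex to 27.5% ± 13.1 after injury and was at 0.116% ± 0.00743 in cultures. In injured replicate 1 it held 14076 of 33018 serpin counts, more than Serpine2 with 11758. Serpinb1a was the next largest share of uninjured cortex, 18% ± 5.82, and fell to 6.87% ± 1.14 and 0.239% ± 0.127. In cultures, Serpinb6a took 19.1% ± 3.16 and Serpinf1 13.6% ± 1.85 of the serpin counts.

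Levels between genes can be compared only per length, here as CPM per kilobase of the merged exons (GENCODE annotation of GRCm38). In uninjured cortex Serpine2 (99.8 ± 46.5 CPM per kb, SD, n = 3) and Serpinb1a (89.9 ± 11.3) came first and did not differ beyond their spread, followed by Serpinf1 (19.1 ± 3.76) and Serpinb6a (11.5 ± 1.48). In injured cortex Serpina3n was first at 199 ± 111 CPM per kb, followed by Serpine2 at 93.0 ± 37.6, which lay within 1 SD of it, and Serpinb1a at 42.9 ± 4.86. In cultures the first 4 were Serpinf1 (167 ± 17.7), Serpine2 (137 ± 33.6), Serpinh1 (120 ± 71.1) and Serpinb6a (103 ± 9.25), whose spreads overlap from each to the next.

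**Figure D3:**
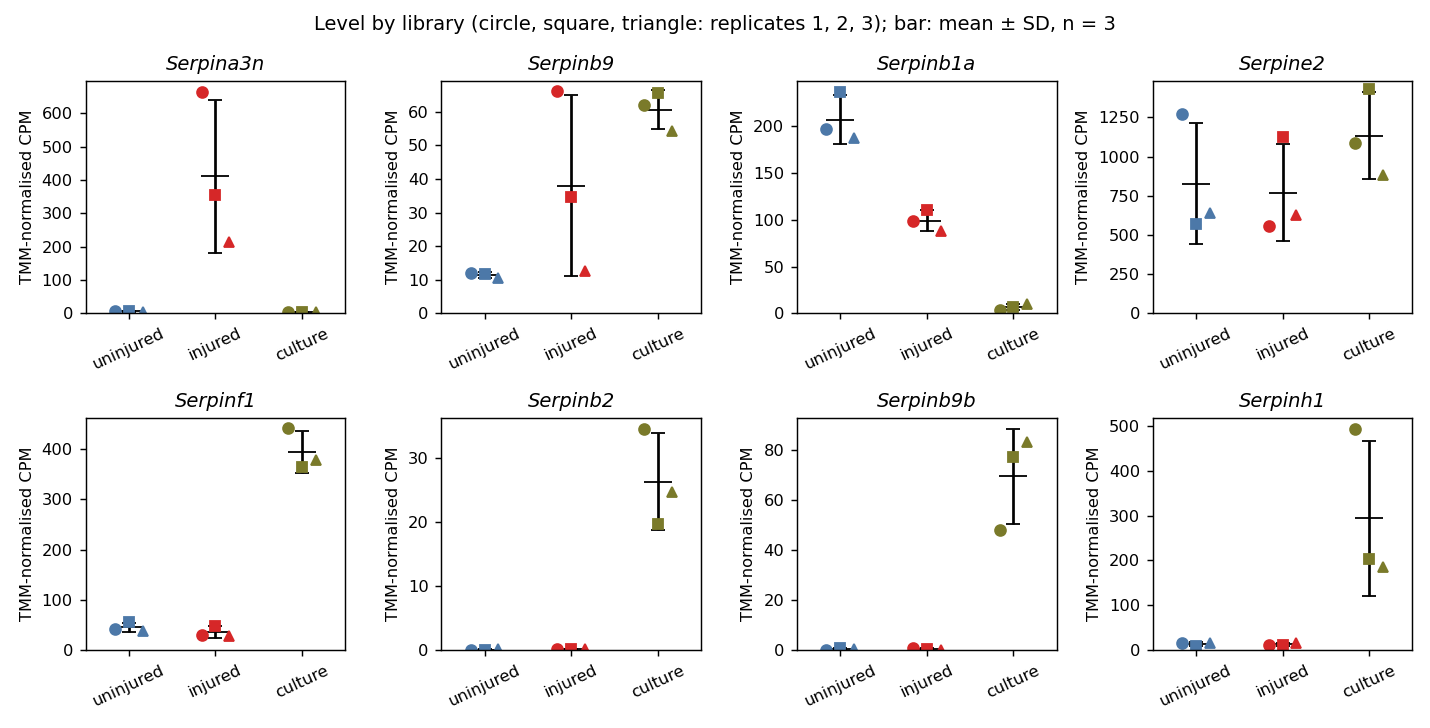
Level in CPM of 8 Serpin genes in each library (symbols for replicates 1, 2 and 3) with the mean and SD of each group, n = 3, on axes that start at 0. Serpina3n is high in injured cortex alone, at 215 to 664 CPM, Serpinb9 spans 12.7 to 66.3 CPM there, and Serpinf1, Serpinb2, Serpinb9b and Serpinh1 are highest in the cultures.

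Among the serpins of coagulation and plasminogen activation, 7 of 10 were tested. None was called higher after injury, 1 was called lower (Serpini1), and in cultures 4 rose and 2 fell against injured cortex and 3 rose and 2 fell against uninjured cortex. The shares called, 14.3%, 85.7% and 71.4%, stand beside 11.9%, 50.1% and 60.5% of all genes. The median log2 fold changes of the 7 were -0.10, 1.29 and 0.46, beside 0.00, -0.19 and -0.17 over all genes tested.

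Serpine2, which inhibits thrombin, urokinase and tissue plasminogen activator outside the cell, was at 1270, 569 and 643 CPM in uninjured replicates 1 to 3, at 555, 1128 and 629 CPM in injured replicates and at 1088, 1433 and 881 CPM in cultures. All 3 ranges overlap. Injury gave a log2 fold change of -0.10 ± 0.38 (SE) and cultures gave 0.56 ± 0.38 and 0.46 ± 0.38 against injured and uninjured cortex, with adjusted p of 0.899, 0.236 and 0.312. The sign of the first is not settled: it was 0.36 without uninjured replicate 1, 0.07 without injured replicate 1 and 0.0066 without injured replicate 3. Against uninjured cortex without replicates 2 and 3 the culture difference was -0.17.

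Serpinb2, the plasminogen activator inhibitor 2 of macrophages and stressed epithelia, was near absent in the 6 in vivo libraries and rose in culture. It was at 0.0552, 0 and 0.122 CPM in uninjured cortex, at 0.142, 0.209 and 0.170 CPM in injured cortex and at 34.6, 19.7 and 24.7 CPM in cultures. Cultures exceeded injured cortex by a log2 fold change of 7.2 ± 0.48 (adjusted p = 3.22e-07). Against uninjured cortex, which held 3 counts in all, the ratio was 498 with a 95% counting interval of 170 to 2417. Serpinb2 and its neighbour Serpinb10 overlap in their annotated exons (12.4% and 8.3% of their bases on the same strand), yet they moved in opposite directions between injured cortex and culture.

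Serping1, the C1 inhibitor of complement and contact proteases, was at 7.68, 5.94 and 9.03 CPM in uninjured cortex, at 16, 11.4 and 6.57 CPM after injury and at 143, 217 and 178 CPM in cultures. Cultures were higher by 3.99 ± 0.33 on the log2 scale than injured cortex (adjusted p = 2.1e-06) and by 4.57 ± 0.34 than uninjured cortex (adjusted p = 5.37e-07). Injured replicate 3 lay inside the uninjured range. For injury the estimate was 0.59 ± 0.31 on the log2 scale (adjusted p = 0.254), and 0.85 (adjusted p = 0.0307) without that library.

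Serpini1, neuroserpin, an inhibitor of tissue plasminogen activator best known from neurons, fell with injury and was higher again in culture. It was at 18.9, 20.4 and 27.0 CPM in uninjured cortex, at 11.8, 11.3 and 7.90 CPM in injured cortex and at 21.3, 30.8 and 23.8 CPM in cultures. Injured libraries lay below all 6 others. On the log2 scale the change was -1.10 ± 0.25 for injury (adjusted p = 0.0141) and 1.29 ± 0.25 for cultures against injured cortex (adjusted p = 0.00123). Cultures against uninjured cortex gave 0.20 ± 0.25 (adjusted p = 0.502). The call for injury was lost without uninjured replicate 3 (-0.95, adjusted p = 0.0594) and without uninjured replicates 2 and 3 (-0.89, adjusted p = 0.278). The 8 neuron markers summed to 19.0 to 31.3 CPM in uninjured cortex, 42.9 to 98.0 CPM in injured cortex and 18.8 to 20.0 CPM in cultures, and none of the 8 was at 0 in every library. Of the 7 tested, Tubb3 alone was called for injury, at 8.17 to 13.4 CPM in uninjured and 33.3 to 75.0 CPM in injured cortex. Their part in the Serpini1 difference was not tested.

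The plasma serpins Serpind1 and Serpinf2 were the 2 members of this group that fell in culture. Serpind1, heparin cofactor II, which inhibits thrombin, was at 10.8, 9.99 and 5.43 CPM in uninjured cortex, at 9.06, 7.07 and 4.87 CPM after injury and at 0.307, 0.460 and 0.157 CPM in cultures. Its log2 fold change was -4.43 ± 0.48 against injured cortex (adjusted p = 1.62e-05) and -4.76 ± 0.48 against uninjured cortex (adjusted p = 5.85e-06), and the in vivo ranges overlap. Serpinf2, the alpha-2 antiplasmin, was low throughout, at 0.442, 0.585 and 0.488 CPM, at 0.189, 0.366 and 0.476 CPM and, in cultures, at 0, 0.115 and 0 CPM. With 2 counts in the cultures, injured cortex was higher by a ratio of 8.33 (95% counting interval 2.08 to 72.6) and uninjured cortex by 11.9 (3.00 to 103). Serpinf2 was called lower against injured cortex with an adjusted p of 0.0301, and this was lost without uninjured replicate 2 (0.0533), either of injured replicates 2 and 3 (0.0696 and 0.106) or either of culture replicates 1 and 3 (0.122 and 0.117). Against uninjured cortex the call (adjusted p = 0.00986) was lost without culture replicate 1 (0.0539) or 3 (0.052). Both calls were lost without uninjured replicates 2 and 3 (0.078 and 0.114), and that against injured cortex also with no filter on low counts (0.081).

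Serpinc1, antithrombin, and Serpina5 and Serpina10, which curb proteases of the clotting cascade, were not tested. Serpinc1 ranged from 0.166 to 0.427 CPM in uninjured cortex, 0.0472 to 0.314 CPM in injured cortex and 0.0575 to 0.123 CPM in cultures. Of its merged exon length, 34.4% overlaps genes on the opposite strand, and whether the counting used strand is not given in the sources used here. Serpina5 had 0 counts in all libraries and Serpina10 1 count, in a culture.

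Both tested members without inhibitory activity rose in culture, and neither was called between the 2 in vivo groups. Serpinh1 (HSP47), the endoplasmic reticulum chaperone of procollagen, was at 15.4, 7.87 and 16.5 CPM in uninjured cortex, at 10.1, 11.6 and 15.3 CPM in injured cortex and at 494, 202 and 185 CPM in cultures. Cultures were higher by 4.57 ± 0.44 on the log2 scale than injured cortex (adjusted p = 6.25e-06) and by 4.47 ± 0.44 than uninjured cortex (adjusted p = 4.22e-06). For injury the log2 fold change was -0.10 ± 0.39 (adjusted p = 0.909) and turned to 0.04 and 0.07 without uninjured replicate 1 or 3. Culture replicate 1 held more than the sum of the other two.

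Procollagen genes, whose products Serpinh1 folds, were fixed as a list of 10. None passed the test for injury (median log2 fold change 0.20), and 9 of 10 rose in cultures against both groups, where 20.0% and 27.5% of all genes did, with medians of 4.79 and 5.26. The exception was Col2a1 of cartilage, with a log2 fold change of -0.15 against injured cortex (adjusted p = 0.905). Col5a2 went from a mean of 1.13 CPM in injured cortex to 162 CPM in cultures, and Col4a2, of basement membranes, from 9.32 to 98.2 CPM. Culture replicate 1, the highest in Serpinh1, was also the highest in Col1a1 (159 CPM against 12.6 and 25.4 CPM in replicates 2 and 3) and Col3a1 (209 CPM against 85.7 and 106 CPM). All 7 fibroblast markers were found and summed to 47.7 to 57.4 CPM in uninjured cortex, 48.5 to 211 CPM in injured cortex and 403, 157 and 200 CPM in culture replicates 1 to 3; 3 of the 7 are procollagen genes of the list, none was at 0 in every library, and their part in the Serpinh1 difference was not tested.

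**Figure D4:**
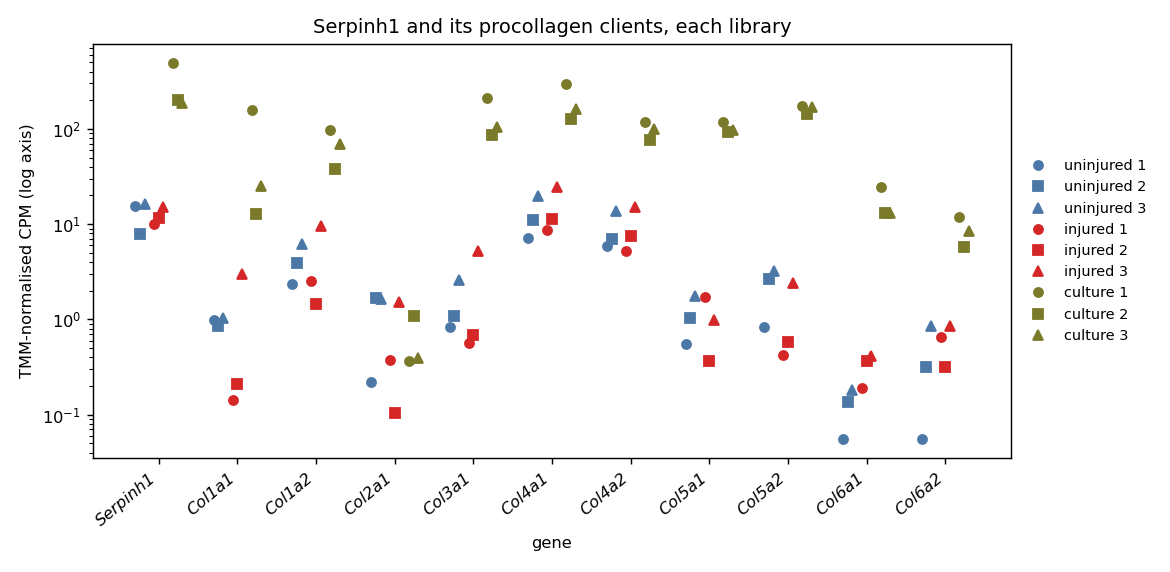
Level in CPM, on a log axis, of Serpinh1 and the 10 procollagen genes of its list in each library, with colour for the group and symbol for the replicate. The culture points lie above the injured points for 9 of the 10 procollagen genes, with culture replicate 1 at 494 CPM for Serpinh1 and 159 CPM for Col1a1.

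Serpinf1, pigment epithelium-derived factor, a secreted protein known for restraining vessel growth and for supporting neurons, was at 41.8, 55.1 and 38.2 CPM in uninjured cortex, at 30.7, 48.5 and 27.5 CPM after injury and at 442, 364 and 378 CPM in cultures. In vivo ranges overlap, with a log2 fold change of -0.34 ± 0.25 (adjusted p = 0.425). Cultures were higher by 3.47 ± 0.28 than injured (adjusted p = 1.32e-06) and by 3.13 ± 0.27 than uninjured cortex (adjusted p = 1.61e-06). Serpinf1 and Serpinf2 are direct neighbours on chromosome 11 and were called in opposite directions in cultures. The other 3 members without inhibitory activity were not tested: Serpina6, a steroid carrier, had 0 counts, Serpina7, a thyroid hormone carrier, had 1, and Serpinb5 (maspin) was at 0.663 CPM in uninjured replicate 1, at 0.377 and 0.209 CPM in injured replicates 1 and 2 and at 0 in the other 6 libraries.

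Clade A held 2 of the 8 members that rose with injury, Serpina3n and Serpina3g. Serpina3n, the main mouse relative of the human acute-phase protein alpha-1 antichymotrypsin, was at 7.90, 6.79 and 4.39 CPM in uninjured cortex, at 664, 356 and 215 CPM in injured cortex and at 3.68, 3.68 and 2.82 CPM in cultures. Each injured library lay above all 6 others, and each culture below all 3 uninjured libraries. The log2 fold change was 6.01 ± 0.44 for injury (adjusted p = 1.12e-05) and -6.91 ± 0.46 for cultures against injured cortex (adjusted p = 3.52e-07). Against uninjured cortex it was -0.90 ± 0.39 (adjusted p = 0.0615), and it was called lower in 6 of the alternatives that kept all libraries and in 3 that left one out. Those 3 gave -1.12 without uninjured replicate 3, -0.93 without injured replicate 1 and -0.91 without injured replicate 3, with adjusted p of 0.0394, 0.0196 and 0.0148.

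Serpina3g, an intracellular inhibitor of cathepsins known from activated lymphocytes and macrophages, followed the same course at lower levels. It was at 0.276, 0.225 and 0.366 CPM in uninjured cortex, at 7.50, 2.77 and 2.18 CPM in injured cortex and at 0.0614, 0.172 and 0 CPM in cultures. The 3 groups do not overlap. The log2 fold change was 3.83 ± 0.68 for injury (adjusted p = 0.00317) and -5.51 ± 0.80 for cultures against injured cortex (adjusted p = 0.000155). Cultures against uninjured cortex were not called, at -1.69 ± 0.90 (adjusted p = 0.123) on 4 and 16 counts. With uninjured replicates 2 and 3 left out, the injury value was 3.86 with an adjusted p of 0.124.

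Other genes of the Serpina3 cluster had too few counts to test. Serpina3i had 22, 8 and 24 counts in the injured libraries, 0 in every uninjured library and 0, 1 and 1 in cultures, which makes injured at least 14.7-fold higher than uninjured cortex when 0 is read as 3 counts over the group. Serpina3f had 1, 1 and 3 counts in uninjured, 22, 14 and 4 in injured and 0, 0 and 2 in culture libraries. Of all stretches of 100 bases in their annotated transcripts, 0.2% for Serpina3n, 3.5% for Serpina3g, 2.2% for Serpina3i and 3.4% for Serpina3f also occur in another serpin gene or pseudogene. Most of each gene can thus be told from its relatives by reads of that length. How the authors' counting treated reads that match several genes is not given in the sources used here.

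The upstream windows of the Serpina3 genes with the clearest counts after injury are printed to compare members that moved together. They are the 250 bases before the annotated start (RefSeq, GRCm38.p6), 5′ to 3′ in the sense of the gene, from chr12:104406458-104406707, chr12:104235897-104236146 and chr12:104262872-104263121, all on the plus strand. Capitals mark a match to the STAT motif TTCNNNGAA or, in Serpina3i only, also to the TEAD motif CATTCC on the opposite strand.
Serpina3n: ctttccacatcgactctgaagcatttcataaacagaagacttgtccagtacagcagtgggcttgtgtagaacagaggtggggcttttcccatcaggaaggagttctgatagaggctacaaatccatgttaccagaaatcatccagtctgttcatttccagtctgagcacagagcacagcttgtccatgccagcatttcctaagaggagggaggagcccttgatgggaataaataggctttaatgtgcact
Serpina3g: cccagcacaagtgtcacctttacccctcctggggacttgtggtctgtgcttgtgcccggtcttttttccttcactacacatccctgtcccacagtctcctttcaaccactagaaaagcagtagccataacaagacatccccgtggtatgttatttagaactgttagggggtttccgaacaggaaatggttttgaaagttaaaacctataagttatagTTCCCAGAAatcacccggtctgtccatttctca
Serpina3i: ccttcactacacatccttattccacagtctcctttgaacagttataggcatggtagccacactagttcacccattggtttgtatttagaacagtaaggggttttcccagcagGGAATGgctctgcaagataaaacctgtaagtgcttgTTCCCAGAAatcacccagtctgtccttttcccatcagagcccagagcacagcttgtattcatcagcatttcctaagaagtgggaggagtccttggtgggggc

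Over the aligned windows Serpina3i and Serpina3n share 65.2% of their bases, Serpina3f and Serpina3i 71.2% and Serpina3f and Serpina3n 62.0%. Serpina3g shares less, 41.2% with Serpina3n, 41.6% with Serpina3i and 39.6% with Serpina3f. That is near the 38.8% of Serpina3n with Serpinh1 and the 40.4% of Serpina3n with Serpinb9b, which lie on other chromosomes. The motif reads ttcccagaa in Serpina3i (102 bases before the start) and Serpina3g (33 bases), and ttcctagaa in Serpina3f (121 bases). At the aligned place in Serpina3n, 123 bases before the start, the letters are ttaccagaa, which differ from Serpina3i by C3A, with the base of Serpina3i first and positions counted from 1 at the 5′ end, so the motif as spelled is not matched there. Among the 54 members with a window, 8 held TTCNNNGAA on either strand, 3 of them among the 18 tested members with a window. Some members have more than 1 window, and 10 of the 63 member windows hold it, beside 7.02% of all 32851 windows. The 3 tested members are Serpina3g, Serpinb6a and Serpinb2, the last in a window other than the one printed below. Of these Serpina3g alone was called higher after injury. A match is a description of letters and shows no binding.

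The rise of Serpina3n and Serpina3g ran with changes in the cell type markers of the same libraries. All 8 monocyte and macrophage markers were found and summed to 42.7 to 93.0 CPM in uninjured cortex, to 2604, 1046 and 534 CPM in injured replicates 1 to 3 and to 155 to 272 CPM in cultures, and none was at 0 in every library. Fn1 held most of the culture sum, at 180 to 306 CPM on the TMM scale of single genes. Against uninjured cortex, Fn1, F13a1 and F10 were called higher in cultures, Ccr2, Ms4a4c, Plac8 and Chil3 lower, and Ly6c2 was not called. Astrocyte markers summed to 4625 to 7730 CPM in uninjured cortex and to 2212, 2489 and 5291 CPM in the same injured replicates. Serpina3n was highest in injured replicate 1 and lowest in replicate 3, which is the order of the monocyte markers and the reverse of that of the astrocyte markers. Of 7 hepatocyte markers, Ahsg was at 0 in all 9 libraries, and Fgb and Fga were at 0 in all but 1 and 3 of them. Alb was at 0.236 to 1.10 CPM and Apoa1 at 0.0944 to 0.488 CPM in the 6 in vivo libraries and both at 0 in cultures, Apoa2 was at 0.172 to 1.19 CPM in all 9, and Ttr ranged from 0 in culture replicate 2 to 18.5 CPM in injured replicate 3 and 36.1 CPM in culture replicate 3. Ttr is also 1 of the 5 choroid plexus markers, so it does not tell these 2 sources apart. The part of these cell types in the Serpina3n difference was not tested.

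Clade B serpins act mostly inside cells. For injury 6 of the 11 tested rose and 1 fell, and in cultures 8 rose and 2 fell against injured cortex. These are 63.6% and 90.9% of the 11, beside 11.9% and 50.1% of all genes. The 3 mouse genes of the Serpinb1 group, relatives of the human leukocyte elastase inhibitor, moved in opposite directions. Serpinb1a, which inhibits elastase, cathepsin G and proteinase 3 of neutrophils, was at 197, 237 and 187 CPM in uninjured cortex, at 98.4, 110 and 87.9 CPM after injury and at 3.68, 6.96 and 9.78 CPM in cultures. The groups do not overlap and fall in that order. Its log2 fold change was -1.07 ± 0.28 for injury (adjusted p = 0.0293), -3.87 ± 0.32 for cultures against injured cortex (adjusted p = 1.93e-06) and -4.93 ± 0.34 against uninjured cortex (adjusted p = 2.41e-07). The injury call was lost on leaving out uninjured replicate 2 (adjusted p 0.10) or 3 (0.0507), either of injured replicates 1 and 2 (0.106 and 0.0509), culture replicate 2 (0.0531) or both uninjured replicates 2 and 3 (0.266), with log2 fold changes of -0.98 to -1.16. The 7 oligodendrocyte markers, none at 0 in any library, summed to 24163 to 37890 CPM, 13963 to 16356 CPM and 273 to 563 CPM in the 3 groups, and the 5 meningeal markers to 3658 to 7101 CPM, 1443 to 2296 CPM and 246 to 260 CPM, both in the same order as Serpinb1a and without overlap. The astrocyte and microglia sums overlapped between the in vivo groups. Ptgds held most of the meningeal sum in vivo, so that sum mostly followed 1 gene there. Slc47a1 was at 1.04 CPM or less in every library, Slc22a6 was at 1.71 CPM or less and at 0 in all cultures. The in vivo ranges of Cldn11 overlapped. Igfbp2 went the other way, from 54.3 to 156 CPM in uninjured cortex to 326 to 341 CPM in cultures. The part of these markers in the Serpinb1a difference was not tested.

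Serpinb1b and Serpinb1c rose where Serpinb1a fell. Serpinb1b was at 0, 0.135 and 0 CPM in uninjured cortex, at 0.472, 0.942 and 0.306 CPM in injured cortex and at 4.48, 5.06 and 5.71 CPM in cultures. With 3 counts in uninjured cortex, the ratio of injured to uninjured was 10.0 (95% counting interval 3.18 to 50.9) and that of cultures to uninjured 95.3 (32.2 to 465), and the log2 fold change of cultures against injured cortex was 3.16 ± 0.61 (adjusted p = 0.00118). Serpinb1c had 0 counts in all uninjured libraries, 0.189, 0.209 and 0.272 CPM in injured cortex and 5.59, 11 and 10.7 CPM in cultures. Read against 3 counts over the group, injured cortex was at least 4.34-fold and culture at least 171-fold higher than uninjured cortex, and cultures exceeded injured cortex by 5.29 ± 0.50 on the log2 scale (adjusted p = 1.59e-05). For Serpinb1b the injury call (adjusted p = 0.0261) was lost without either of uninjured replicates 1 and 3 (0.0608 and 0.0875) or either of injured replicates 1 and 2 (0.0583 and 0.0764), and for both genes without uninjured replicates 2 and 3 together (0.0851 and 0.168). No stretch of 100 bases is shared between these genes and other serpins.

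Serpinb6a and Serpinb6b, relatives of the human inhibitor of cathepsin G, both rose in culture, and for injury Serpinb6b alone was called. Serpinb6a was at 57.8, 71.4 and 57.3 CPM in uninjured cortex, at 46.7, 44.6 and 47.2 CPM after injury and at 498, 576 and 592 CPM in cultures. Cultures lay above injured cortex by 3.59 ± 0.22 (adjusted p = 1.77e-07) and above uninjured cortex by 3.16 ± 0.21 on the log2 scale (adjusted p = 2.39e-07). All injured libraries lay below all uninjured ones, with a log2 fold change of -0.43 ± 0.20 (adjusted p = 0.193). Of its merged exons, 29.3% overlap other genes on the opposite strand, Nqo2 and Ripk1 among them, and with the strand setting not given those reads cannot be told apart.

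Serpinb6b was at 3.09, 0.945 and 2.07 CPM in uninjured cortex, at 16, 9.53 and 3.37 CPM in injured cortex and at 32.5, 45.5 and 48.0 CPM in cultures. The groups do not overlap and rise in that order. Its log2 fold change was 2.25 ± 0.52 for injury (adjusted p = 0.0158), 2.13 ± 0.49 for cultures against injured cortex (adjusted p = 0.00377) and 4.37 ± 0.56 against uninjured cortex (adjusted p = 3.68e-05). Leaving out uninjured replicate 2 gave 1.87 for injury (adjusted p = 0.0738), uninjured replicate 3 gave 2.25 (0.0577), injured replicate 1 gave 1.64 (0.0857) and leaving out both of these uninjured replicates gave 1.62 (0.335), so that the call was lost in each case, as it was by limma-voom (2.08, 0.0623) and in a fit of the 2 groups alone (2.23, 0.063).

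Serpinb8, an inhibitor of the proprotein convertase furin, showed the same order of groups. It was at 0.773, 0.495 and 1.40 CPM in uninjured cortex, at 6.84, 4.45 and 2.25 CPM after injury and at 29.4, 32.7 and 40.7 CPM in cultures. Its log2 fold change was 2.36 ± 0.45 for injury (adjusted p = 0.00521), 2.93 ± 0.42 for cultures against injured cortex (adjusted p = 0.00013) and 5.28 ± 0.48 against uninjured cortex (adjusted p = 2.41e-06). The injury call was kept without each library in turn, and was lost without uninjured replicates 2 and 3 together (2.51, adjusted p = 0.083).

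Serpinb9, the intracellular inhibitor of granzyme B that shields lymphocytes and other cells from their own granules, was at 12, 11.7 and 10.4 CPM in uninjured cortex, at 66.3, 34.8 and 12.7 CPM in injured cortex and at 62.0, 65.5 and 54.2 CPM in cultures. Injured replicate 3 lay near the uninjured range and injured replicate 1 at the level of the cultures. The log2 fold change was 1.73 ± 0.43 for injury (adjusted p = 0.0212), 0.68 ± 0.42 for cultures against injured cortex (adjusted p = 0.19) and 2.41 ± 0.44 against uninjured cortex (adjusted p = 0.000561). Without injured replicate 1 the injury value was 1.04 (adjusted p = 0.125) and cultures exceeded injured cortex by 1.35 (adjusted p = 0.0123). Leaving out uninjured replicate 2, uninjured replicate 3 or both gave 1.73, 1.65 and 1.64 for injury, with adjusted p of 0.0818, 0.0829 and 0.32, so that the call was lost there too, as it was by limma-voom (1.41, 0.0845) and in a fit of the 2 groups alone (1.72, 0.0727).

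Granzyme B itself, encoded by Gzmb, was at 0.497, 2.07 and 0.732 CPM in uninjured cortex, at 55.7, 14.5 and 4.56 CPM in injured cortex and at 0.798, 1.44 and 0.0783 CPM in cultures. The cultures thus held Serpinb9 at 54.2 to 65.5 CPM with Gzmb at 1.44 CPM or less. The 8 T and NK cell markers, all found, summed to 11.5 to 41.1 CPM in uninjured cortex, to 307, 124 and 113 CPM in injured replicates 1 to 3 and to 7.80 to 13.2 CPM in cultures. There Ncr1 and Prf1 were at 0, while Trac, at 7.90 to 9.03 CPM, lay above its 2.49 to 4.03 CPM in uninjured cortex (adjusted p = 0.0191). The part of these markers in the injury difference of Serpinb9 was not tested.

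Serpinb9 is shown with its upstream window because it was 1 of 2 members, with Serpinb6a, to hold the interferon-stimulated response element, spelled as GAAA, any 2 bases and GAAA again, searched on both strands and held by 2.977% of all windows. The match lies 46 bases before the start on the opposite strand and is in capitals. Serpinb2 is shown beside it for the AP-1 motif TGANTCA, 94 bases before the start. That motif is held by 11 of the 54 members with a window, 4 of the 18 tested ones among them. It is in 12 of the 63 member windows, beside 6.749% of all windows. The 11 include the neighbouring genes Serpina1a to Serpina1d, which were not tested, and Serpinb10, which moved opposite to Serpinb2 between injured cortex and culture. The windows are chr13:33004291-33004540 and chr1:107511173-107511422, both on the plus strand (RefSeq, GRCm38.p6).
Serpinb9: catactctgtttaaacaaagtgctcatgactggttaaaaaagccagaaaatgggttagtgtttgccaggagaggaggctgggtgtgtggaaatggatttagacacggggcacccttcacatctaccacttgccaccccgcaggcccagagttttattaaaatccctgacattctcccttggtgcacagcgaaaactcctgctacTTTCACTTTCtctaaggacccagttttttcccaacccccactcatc
Serpinb2: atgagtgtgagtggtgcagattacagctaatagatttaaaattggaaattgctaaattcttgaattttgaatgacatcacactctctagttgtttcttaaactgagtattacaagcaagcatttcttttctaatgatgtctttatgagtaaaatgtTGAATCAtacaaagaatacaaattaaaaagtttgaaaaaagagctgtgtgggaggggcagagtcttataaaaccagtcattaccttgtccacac

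Serpinb9b, a mouse relative of Serpinb9, was near absent in vivo and rose in cultures. It was at 0.0552, 0.630 and 0.488 CPM in uninjured cortex, at 0.849, 0.314 and 0.102 CPM in injured cortex and at 47.9, 77.3 and 83.3 CPM in cultures. Cultures exceeded injured cortex by 7.41 ± 0.63 (adjusted p = 2.37e-06) and uninjured cortex by 7.42 ± 0.64 on the log2 scale (adjusted p = 1.5e-06). For injury the log2 fold change was 0.01 ± 0.80 (adjusted p = 0.998), and its sign differed between alternatives.

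Serpinb10, known from blood cell precursors, and Serpinb12, known from epithelia, were low. Serpinb10 was at 0, 0.315 and 0.0610 CPM in uninjured cortex, at 2.64, 0.995 and 0.613 CPM in injured cortex and at 0.0614, 0 and 0 CPM in cultures. It rose with injury by 3.33 ± 0.96 on the log2 scale (adjusted p = 0.0423), a call that was lost without each of 7 of the 9 libraries in turn, with adjusted p of 0.0654 to 0.248. It was also lost under upper-quartile scaling (0.0508), in a fit of the 2 groups alone (0.0784) and without uninjured replicates 2 and 3 (0.113). With 1 count in the cultures, injured cortex was higher than culture by a ratio of 62.0 (95% counting interval 10.9 to 2475). Serpinb12 was at 0.166, 0.0450 and 0.122 CPM, at 0, 0.471 and 0.306 CPM and at 2.09, 2.99 and 3.44 CPM, and cultures exceeded injured cortex by 3.42 ± 0.79 (adjusted p = 0.00358) and uninjured cortex by 4.64 ± 0.89 (adjusted p = 0.000783).

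Among the 8 serpins called higher after injury, 6 had their highest level in injured replicate 1 and their lowest in replicate 3: Serpina3n, Serpinb9, Serpinb6b, Serpinb8, Serpina3g and Serpinb10. That is 75% of the 8, and 55.5% of all 1626 genes called higher had that order. The monocyte markers (2604, 1046 and 534 CPM) and the T and NK cell markers (307, 124 and 113 CPM) had it too. Other immune lists did not. The 10 neutrophil markers summed to 611, 651 and 711 CPM in injured replicates 1 to 3, the reverse order. The 7 microglia markers summed to 7385, 12915 and 6380 CPM, highest in replicate 2. Among the 8 serpins the exceptions were Serpinb1b, highest in replicate 2, and Serpinb1c, highest in replicate 3 and at 0.272 CPM or less. The part of immune cell content in these members was not tested.

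In the genome all tested clade A and B serpins sit in 3 clusters (RefSeq gene order, GRCm38.p6, matched for 63 of the 64 members). The cluster on chromosome 13 holds 16 members, of which 7 were tested, in the order Serpinb1a, Serpinb1c, Serpinb6b, Serpinb9, Serpinb9b, Serpinb1b and Serpinb6a. Of these 7, 4 rose and 1 fell after injury, and 5 rose and 1 fell in cultures against injured cortex, 71.4% and 85.7% beside 11.9% and 50.1% of all genes. The gene that fell, Serpinb1a, stands at the edge of the cluster. On chromosome 12, 23 members lie together and 2 were tested, Serpina3g and Serpina3n, and both rose with injury and fell in culture. On chromosome 1, 12 members lie together and 4 were tested, with 2 higher and 0 lower after injury and 3 higher and 1 lower in cultures against injured cortex, and there the adjacent Serpinb2 and Serpinb10 differ in direction.

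**Figure D5:**
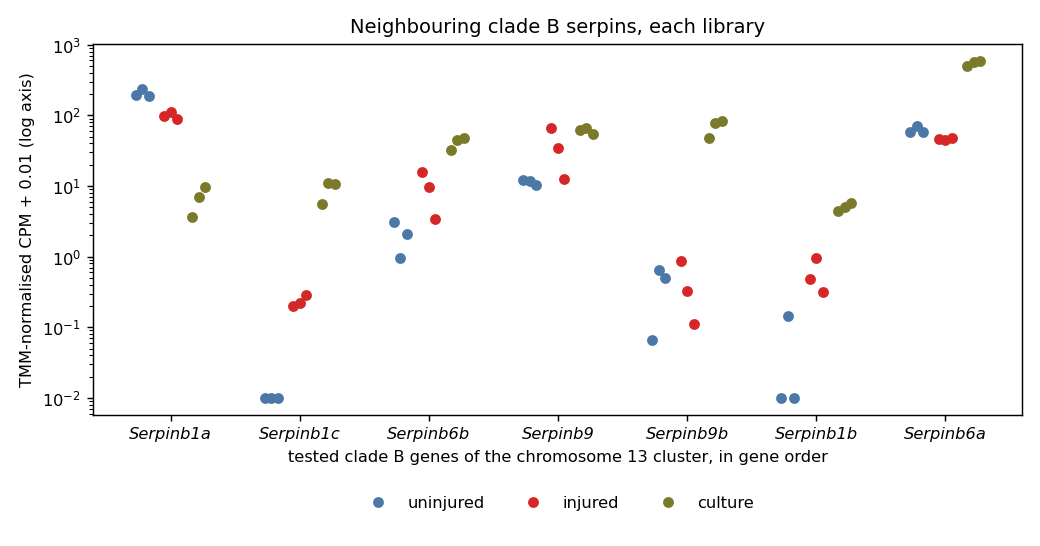
Level in CPM, with 0.01 added and on a log axis, of the 7 tested clade B genes of the chromosome 13 cluster in gene order, with a point for each library coloured by group. Serpinb1a falls from 207 CPM on average in uninjured cortex to 6.81 CPM in cultures, while the culture points of the other 6 genes lie above their uninjured points.

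Proteases that serpins inhibit were fixed as a list of 34, of which 21 were tested. For injury 7 were higher and 1 lower (median log2 fold change 1.27), and in cultures 5 rose and 7 fell against injured cortex and 10 rose and 5 fell against uninjured cortex, with medians of 0.11 and 0.88. The share called was 38.1% for injury beside 11.9% of all genes, and 57.1% and 71.4% in cultures beside 50.1% and 60.5%, near the share of all genes. Klk6, an oligodendrocyte protease, rose by 3.44 ± 0.45 with injury (adjusted p = 0.000496) and fell by 7.64 ± 0.57 in cultures against injured cortex (adjusted p = 8.16e-07). F10, the clotting factor activated to cleave prothrombin, rose by 7.55 ± 0.67 with injury (adjusted p = 3.54e-05), and F7, its activator, was at 1.02 to 5.18 CPM in injured cortex, 23.1 to 28.2 CPM in cultures and 0.122 CPM or less in uninjured cortex. Gzma, granzyme A, rose by 2.53 ± 0.46 (adjusted p = 0.00604) and had 0 counts in all cultures. Ctsk, cathepsin K of osteoclasts and macrophages, was higher in cultures than in injured cortex by 3.69 ± 0.29 (adjusted p = 1.24e-06), and Klk8, neuropsin, fell by 3.28 ± 0.33 (adjusted p = 9.27e-06).

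The plasminogen activators, the targets of Serpine2, Serpinb2 and Serpini1, went in different directions. Plau, urokinase, was at 10.2, 1.48 and 1.65 CPM in uninjured cortex, at 12.1, 18.3 and 5.62 CPM after injury and at 27.8, 25.4 and 22.3 CPM in cultures, with a log2 fold change of 2.50 ± 0.65 for cultures against uninjured cortex (adjusted p = 0.00569). Plat, tissue plasminogen activator, was at 135, 60.5 and 74.4 CPM, at 59.9, 94.2 and 46.1 CPM and at 33.6, 36.6 and 22.7 CPM, and in cultures it fell by 1.54 ± 0.34 against uninjured cortex (adjusted p = 0.00219) and had a log2 fold change of -1.11 ± 0.34 against injured cortex (adjusted p = 0.0172). Neither was called for injury, with adjusted p of 0.175 and 0.454.

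Of 14 receptors and cofactors, 13 were tested, and 2 rose and 2 fell with injury. Sdc1, a heparan sulfate proteoglycan, rose by 3.03 ± 0.41 (adjusted p = 0.000564) and its relative Sdc4 by 1.01 ± 0.24 (adjusted p = 0.0164). Vtn, vitronectin, an adhesive protein of plasma and matrix, fell by 1.24 ± 0.27 (adjusted p = 0.0112) and F3, tissue factor, fell by 1.51 ± 0.33 (adjusted p = 0.0113). Vtn is also 1 of the 8 mural cell markers, none at 0 in any library, which summed to 971 to 2192 CPM in uninjured, 502 to 705 CPM in injured cortex and 2497 to 2772 CPM in cultures. Acta2 held most of the culture sum, at 3118 to 3656 CPM on the TMM scale of single genes. Against injured cortex, Acta2, Myh11 and Pdgfrb were called higher in cultures, and Kcnj8, Abcc9, Higd1b, Rgs5 and Vtn lower. After injury Kcnj8, Higd1b, Rgs5 and Pdgfrb of that list were called lower with Vtn, and their part in the Vtn difference was not tested. Of the 13 receptors and cofactors, 3 rose and 3 fell in cultures against injured cortex, and 6 rose and 3 fell against uninjured cortex. The shares called were 46.2% and 69.2% beside 50.1% and 60.5% of all genes, and for injury 30.8% beside 11.9%. In cultures against injured cortex the log2 fold change was -6.22 ± 0.34 for Vtn (adjusted p = 1.08e-07), and -3.03 ± 0.30 (adjusted p = 7.9e-06) and -2.85 ± 0.34 for the clearance receptors Vldlr and Sorl1 (adjusted p = 3.2e-05). Sdc1 was higher there by 4.25 ± 0.37 (adjusted p = 3.05e-06).

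Protease inhibitors of other folds gave a list of 32, of which 21 were tested. For injury 9 rose and 1 fell (median log2 fold change 0.61), and in cultures 5 rose and 12 fell against injured cortex and 6 rose and 9 fell against uninjured cortex, with medians of -2.29 and -0.84. The shares called, 47.6%, 81% and 71.4%, stand beside 11.9%, 50.1% and 60.5% of all genes. The medians of the tested serpins were 2.75 and 3.16 in the same comparisons, and no test of the difference between the lists was made. With injury A2m, a broad protease trap, rose by 3.21 ± 0.51 (adjusted p = 0.00149), Slpi, an inhibitor of leukocyte proteases, by 3.26 ± 0.56 (adjusted p = 0.00279), Cst7, cystatin F, by 2.93 ± 0.45 (adjusted p = 0.0013) and Wfdc17 by 3.56 ± 0.46 (adjusted p = 0.000465). In cultures against injured cortex A2m fell by 4.87 ± 0.59 (adjusted p = 3.8e-05), and Itih3 and Itih5, heavy chains of the inter-alpha-trypsin inhibitor family, had log2 fold changes of -3.97 ± 0.28 (adjusted p = 5.75e-07) and -4.92 ± 0.51 (adjusted p = 1.19e-05).

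The 28 members with counts that were not tested held 1 to 56 counts over the 9 libraries, the highest being Serpina3i, and 16 of them held 5 counts or fewer. Of the alpha-1 antitrypsin genes, the main elastase inhibitors of plasma, Serpina1a, Serpina1b and Serpina1e had 1 count each and Serpina1c and Serpina1d had 0. A count of 0 over all libraries does not show that a gene is silent at this depth. Of the 28, 11 had counts in uninjured replicates 2 or 3 only and 22 had some there. Per library, 5, 16 and 12 of the 28 were detected in uninjured replicates 1 to 3, 6 in each injured library and 6, 9 and 8 in cultures. The 2 uninjured libraries with the most of them are those with olfactory and vomeronasal receptor counts. Serpina12 (vaspin), an inhibitor of kallikrein 7, had counts in the cultures alone, 4, 4 and 2, at least 5-fold above injured cortex when 0 is read as 3 counts over the group.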

How the data were processed

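The 9 RNA sequencing libraries, 3 each from uninjured cortex, injured cortex and reactive culture, were grouped by their sample labels. Raw counts per gene, as the authors deposited them, are the starting values. Per the submitters' processing notes the tools and build were HISAT2 and GRCm39, with no versions. How reads were counted, with which strand setting and annotation, is not given in the sources used here.

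In R 4.3.3, edgeR 4.0.16 was run on the 18093 of 56748 genes that passed filterByExpr, scaled by TMM factors (trimmed means of M values). A quasi-likelihood model with 1 mean per group left 6 residual degrees of freedom. P-values were adjusted by Benjamini-Hochberg over all these genes and called under 0.05. Levels of single genes are TMM-normalised CPM, sums over genes are CPM of the library total unless stated, and changes are log2 fold changes ± SE. Where a group held 0 counts, the fold is a bound that reads 0 as 3 counts over the group; where it held 1 to 3, a ratio with an exact 95% binomial interval is given, which covers counting error only. The script was tested on simulated data.

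Serpins with a group mean of at least 10 CPM, serpins called in any comparison and a panel of well known members are named with values, and from each list up to 4 called genes of smallest adjusted p. Gzmb, Plau, Plat, Col1a1, Col2a1, Col3a1, Serpina3f, Serpina3h, Serpina3i, Serpina12, Serpinb9d and Serpinb9h were named after their values were seen. The values of 1 tested serpin, which enters the counts and medians over the family, are not reported here. The members and lists were chosen with earlier results of these data known. Lengths come from GENCODE M21 (GRCm38), and gene order and upstream windows from RefSeq (GRCm38.p6).

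The alternatives kept all libraries but used size factors of DESeq2 1.42.0, upper-quartile factors, the DESeq2 Wald test, limma-voom (limma 3.58.1), all genes with a count, genes at 1 CPM in 3 libraries, the 2 groups alone or a replicate block, or left out each library in turn. Dropping uninjured replicates 2 and 3 at once was decided after seeing the data, and assumes that the remaining library varies as the others do. The samples of a group are biological replicates per the design text of the series; how many animals each holds is not said.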

Additional observations from a re-analysis of the deposited data

How the results depend on the processing

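The 13 members higher in cultures stayed at 13 or 14 in both comparisons under every alternative, as counts. Members called lower against injured cortex numbered 4 to 8 beside 6. For injury, members called higher numbered 8, and 3 in a fit of the 2 groups alone, 4 to 10 with 1 library left out and 1 without uninjured replicates 2 and 3. Members called lower numbered 2, with 0 to 3 when 1 library was left out and 0 without both uninjured libraries. Members lower in cultures than in uninjured cortex numbered 3, and 6 with no filter on low counts, with 2 to 5 when 1 library was left out. All genes called for injury numbered 2145, and 1369 with the 2 groups alone, 974 to 4102 with 1 library left out and 462 without uninjured replicates 2 and 3; the last setting gave 6997 genes for cultures against uninjured cortex beside 10954. Fewer libraries enter these fits; the cause of the other changes was not tested.

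Signs turned only for log2 fold changes that were not called. For injury Serpinb9b was -0.054 with DESeq2 size factors, -0.12 with upper-quartile factors, -0.0020 with the Wald test, -0.0039 with limma-voom, -0.029 with 1 CPM in 3 libraries and -1.07 to 0.58 with 1 library left out, below 0 without uninjured replicate 1 or injured replicate 1. Over the libraries left out Serpine2 ranged from -0.48 to 0.36, above 0 without uninjured replicate 1, injured replicate 1 or injured replicate 3, and Serpinh1 from -0.39 to 0.074, above 0 without uninjured replicate 1 or 3. In cultures against uninjured cortex without uninjured replicates 2 and 3, Serpinb10 was 2.10 and Serpine2 -0.17. The cause was not tested.

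Replicate numbers are not stated to pair the samples, and with 3 libraries per group the counts cannot settle it. Deviations of same-numbered libraries correlated at r of -0.088 to 0.353, and 2 to 4 of 6 libraries matched their own number best. With the replicate block, members called higher and lower were 7 and 2 for injury, the one no longer called being Serpinb10 (3.29, adjusted p = 0.0514), 13 and 6 for cultures against injured cortex and 13 and 4 for cultures against uninjured cortex, and genes called were 2203, 9096 and 11060. Depth limits the 28 members with counts that could not be tested.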

Other observations

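Agt, angiotensinogen, is a serpin by fold that its symbol leaves out of the family as counted here, and in brain it is known from astrocytes. It was at 18.6, 24.0 and 20.3 CPM in uninjured cortex, at 5, 4.87 and 11.1 CPM in injured cortex and at 1.11, 0.345 and 0.470 CPM in cultures, and the 3 groups do not overlap. The log2 fold change was -1.58 ± 0.40 for injury (edgeR adjusted p = 0.0224), -3.43 ± 0.47 for cultures against injured cortex (adjusted p = 0.000105) and -5.01 ± 0.49 against uninjured cortex (adjusted p = 4.21e-06). Injured replicate 3, the highest of its group in Agt, also had the highest astrocyte marker sum of its group, 5291 CPM against 2212 and 2489 CPM. The part of astrocyte content in the Agt difference was not tested.

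Serpina3h had 1 count in uninjured cortex and 1 in the cultures, and was at 0.189, 0.105 and 0.102 CPM in the injured libraries, the same order of groups as Serpina3i. The ratio of injured to uninjured cortex was 7.33 with a 95% counting interval of 1.02 to 321. Serpinb9h and Serpinb9d, relatives of Serpinb9, had counts in uninjured replicates 2 and 3, at 0.585 and 0.427 CPM and at 0.450 and 0.244 CPM, with 0 in uninjured replicate 1 and in all injured libraries. In culture replicates 1 to 3 Serpinb9d had 1, 2 and 0 counts and Serpinb9h had 0 in each. Uninjured replicates 2 and 3 are the 2 libraries with the most olfactory and vomeronasal receptor counts.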
